A study of Mus musculus with 8 samples.

Results

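The mitochondrial ribosomal protein genes were defined by symbol, as the protein-coding mouse genes called Mrpl or Mrps followed by a number and at most 1 letter in GENCODE M21. The rule found 78 of the 49585 genes in the 8 deposited tables. RNA had been sequenced from the dorsal horn of lumbar spinal cord segments 4 to 6, the part of the cord that receives touch and pain input, of adult C57BL/6J mice. The 4 miR-96 knock-out mice lack microRNA-96, and the 4 wild-type mice carry no change that the labels name. Each mouse gave 1 polyA library. The labels do not say how the knock-out allele was made or whether the mutation was present in every cell. Mir96 itself was listed at 0 in all 8 libraries, knock-out and wild type, so its row cannot check the genotype labels. The study's title sets the question as whether miR-96 restrains sodium channels in the spinal cord, and the question for the present genes was whether their transcript levels differed between the genotypes.

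Mitochondria hold ribosomes of their own, built from a small and a large subunit, which translate the few mRNAs that the mitochondrial genome encodes. Both mitoribosomal RNAs come from mitochondrial DNA, whereas the ribosomal proteins are encoded in the nucleus, made in the cytosol and imported. The proteins they translate are core subunits of the respiratory chain and the ATP synthase, which neurons depend on heavily. By role and by known structure, 26 of the 78 genes belonged to the small subunit and 51 to the large subunit. The large subunit's set included Mrps30 and Mrps18a, which keep an Mrps name. Mrps36 is now known as a part of the oxoglutarate dehydrogenase complex and was kept apart from both subunits. The genes lay on 17 chromosomes, with 11 of them on chromosome 11 and 8 on chromosome 17.

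MicroRNAs lower mRNAs that pair with their seed, bases 2 to 8, through sites that lie mostly in 3′ untranslated regions. The mature sequence from RefSeq, on GRCm38.p6 at chr6:30169506-30169528 on the minus strand, is shown with its seed in capitals because the seed defines which members could pair with it.
mmu-miR-96-5p: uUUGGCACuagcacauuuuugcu
The longest annotated 3′ untranslated region was searched on the transcript strand for GTGCCAA, which pairs with the whole seed, and for TGCCAAA, which pairs with bases 2 to 7 and ends in an A. The 2 patterns overlap where both are present. Of the 76 tested members with such a region, 9 held a match (11.8%), against 2674 of 13054 tested protein-coding genes (20.5%). The members' regions were shorter, with a median of 393 nt against 1246 nt. Mrps17, a small-subunit protein related to bacterial S17, was the member with both patterns in 1 site. That site began at base 4270 of a region of 4401 nt. The gene's annotated protein-coding transcripts had a median length of 851 nt, so not all of them hold the site. Mrpl10, a protein of the ribosomal stalk, and Mrps25, a mitochondrion-specific small-subunit protein, are shown as examples of a single pattern, with the match in capitals.
Mrps17: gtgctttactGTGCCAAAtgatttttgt
Mrpl10: cctgggtcttGTGCCAAgcactctaca
Mrps25: cccttgtttcTGCCAAAgctgtggcaa
Mrps17 had 28.0, 28.9, 30.6 and 29.7 FPKM in the knock-out libraries, against 32.2, 30.7, 30.5 and 29.9 FPKM in the wild-type libraries. FPKM is the number of fragments scaled to the length of the transcript and to the depth of the library. The Mrps17 levels overlapped between genotypes, with the lowest of the 8 in a knock-out and the highest in a wild type. Members with a match had a median log2 fold change of -0.199 and members without one -0.196. Over all tested protein-coding genes the medians were 0.0609 with a match and -0.00453 without. These sets were not matched for transcript length. Across all tested genes the log2 fold change rose with length (Spearman's rho 0.324, or 0.167 without wild type replicate 1). The difference between the medians was not tested. A log2 fold change here is the mean of log2(FPKM + 1) in knock-out minus that in wild type, so a negative value means lower in knock-out, and it understates changes of low genes.

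Transcripts of nearly the whole mitoribosome were present in the dorsal horn. Averaged over the 8 libraries, the 77 members above 0 ran from 5.43 FPKM for Mrpl1 to 124 FPKM for Mrps21, a 22.8-fold span. Their median was 29.6 FPKM, against 12.7 FPKM for all tested genes and 15.2 FPKM for tested protein-coding genes. Mrps21, a small RNA-binding protein of the small subunit at chromosome 3, 95862634 to 95871519 on GRCm38, was the most abundant. It was followed by the large-subunit genes Mrpl41, Mrpl20, Mrpl42, Mrpl52 and Mrpl27. The lowest levels after Mrpl53 were those of Mrpl1, Mrps30, Mrpl47 and Mrps31. Mrpl53 was listed at 0 in all 8 libraries. Of its 790 annotated exonic nt on chromosome 6, 695 also belong to Gm42688 on the same strand, which was listed at 0.118 to 0.291 FPKM, so the Mrpl53 entry cannot be read as an absent transcript. Of the 77 tested members, 32 shared exonic bases with another gene, and their levels carry the uncertainty of how the authors' counting split such reads. The members' transcripts were short, with a median annotated length of 1056 nt (range 405 to 6073 nt) against 2229 nt for all tested protein-coding genes. Shorter members had higher FPKM (Spearman's rho -0.503 across 77 genes that share the same libraries, against 0.00969 across 15020 tested genes).

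Promoters of mitoribosomal genes are known for sites of NRF1, of ETS factors such as GABP, and of YY1, factors that act on many nuclear genes of mitochondria. RefSeq promoters on GRCm38.p6, from 250 bases before to 50 bases after the start, were at hand for 69 members. Each was searched on both strands. The NRF1 core GCGCANGCG stood in 16 of them (23.2%, against 6.47% of all 27025 promoters and 13.5% of those of tested protein-coding genes). The ETS core CCGGAAG stood in 25 (36.2%, against 9.12% and 17.2%). The YY1 core AAGATGGCG stood in 8 (11.6%, against 1.49% and 3.1%). At least 1 of these 3 was found in 41 member promoters (59.4%, against 15.3% and 30.0%). CCAAT, a motif of many housekeeping promoters, was about as common in member promoters (39.1%) as in all promoters (37.9%), and TATAAA was found in 5.8% of them, against 14.2% of all promoters and 6.6% of those of tested protein-coding genes. These are matches of letters and not measured binding. Of the 69 promoters, 60 had their first 30 transcribed bases in a GENCODE transcript.
Promoters of 4 members are shown because they hold the different motifs near the start: Mrpl34 with an ETS match, Mrpl36 with a YY1 match, Mrpl22 with an ETS and an NRF1 match, and Mrpl45 with 3 NRF1 matches. All 4 lie on the plus strand, at chr8:71464676-71464975, chr13:73330759-73331058, chr11:58171414-58171713 and chr11:97315466-97315765 in that order. Capitals mark the NRF1, ETS and YY1 matches.
Mrpl34: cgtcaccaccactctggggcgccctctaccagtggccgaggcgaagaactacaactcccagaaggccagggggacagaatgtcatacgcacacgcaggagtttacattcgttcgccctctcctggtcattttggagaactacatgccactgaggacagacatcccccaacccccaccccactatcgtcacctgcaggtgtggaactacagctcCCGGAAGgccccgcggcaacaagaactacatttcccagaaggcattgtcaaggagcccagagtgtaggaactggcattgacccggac
Mrpl36: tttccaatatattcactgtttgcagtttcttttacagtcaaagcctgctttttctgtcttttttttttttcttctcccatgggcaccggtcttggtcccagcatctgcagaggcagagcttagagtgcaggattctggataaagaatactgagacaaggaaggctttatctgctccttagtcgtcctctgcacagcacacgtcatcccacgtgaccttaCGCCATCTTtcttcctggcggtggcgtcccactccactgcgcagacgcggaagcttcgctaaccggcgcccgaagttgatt
Mrpl22: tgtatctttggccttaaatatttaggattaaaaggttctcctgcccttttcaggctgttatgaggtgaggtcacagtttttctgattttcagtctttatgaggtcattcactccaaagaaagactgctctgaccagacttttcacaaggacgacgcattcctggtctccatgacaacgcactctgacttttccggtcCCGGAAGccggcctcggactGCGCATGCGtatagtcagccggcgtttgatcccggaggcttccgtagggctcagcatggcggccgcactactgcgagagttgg
Mrpl45: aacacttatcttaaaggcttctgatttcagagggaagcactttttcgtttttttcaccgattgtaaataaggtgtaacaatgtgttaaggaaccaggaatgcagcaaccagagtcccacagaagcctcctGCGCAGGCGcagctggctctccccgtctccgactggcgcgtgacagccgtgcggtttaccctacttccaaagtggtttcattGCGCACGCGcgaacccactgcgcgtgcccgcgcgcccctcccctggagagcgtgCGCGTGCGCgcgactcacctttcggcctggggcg

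Before the comparison, the libraries differed in ways the genotypes do not name. Depth, estimated from the steps between low FPKM values, ran from 31980000 to 43120000 fragments per library, and the lowest estimate behind any tested member in any library was 161 fragments. Wild type replicate 1 stood apart: it was the highest of the 8 libraries for 30.0% of all 15061 tested genes and the lowest for 32.0%. It also held the highest sums of several marker lists. The 5 erythroid markers, of which 4 were tested and all 4 peaked there, summed to 17.8 to 39.3 FPKM in knock-out and 5.96 to 199 FPKM in wild type, the 199 being wild type replicate 1. The 8 oligodendrocyte markers summed to 10618 to 11740 FPKM in knock-out and 9900 to 15892 FPKM in wild type, and 7 of the 8 peaked in that same library. The 14 markers of dorsal horn neurons summed to 516 to 762 FPKM in knock-out and 635 to 924 FPKM in wild type. Of these 14, 12 had a negative log2 fold change (knock-out minus wild type, defined above), with a median of -0.217, or -0.0999 without wild type replicate 1, and 2 had an unadjusted p under 0.05. The 10 general neuronal markers summed to 2283 to 2566 FPKM in knock-out and 2339 to 2561 FPKM in wild type, so markers of the labelled tissue were present in all 8 libraries. In the liver and meningeal lists most fold changes were positive. Of the 9 tested liver markers, 8 had an unadjusted p under 0.05 and were higher in knock-out. The median log2 fold change over the list was 1.52, or 1.51 without wild type replicate 1. The 10 listed markers summed to 65.8 to 103 FPKM in knock-out and 38.7 to 164 FPKM in wild type, the 164 being wild type replicate 1. That sum does not describe the list, because only 1 of the 9 tested markers peaked in wild type replicate 1. On the log2 scale the median difference of that library from the mean of the other 7 was -0.646 over these markers. All 8 markers of meninges and fibroblasts had a positive log2 fold change, with a median of 0.237, and summed to 95.5 to 221 FPKM in knock-out and 93.9 to 141 FPKM in wild type. No marker gene was called after adjustment, and no marker of these lists was at 0. The part of these markers in the results on the mitoribosome was not tested, and in bulk tissue fewer cells of a type and less RNA per cell cannot be told apart.

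No mitochondrial ribosomal protein gene passed the test between genotypes, although most had lower mean levels in the knock-out. Of the 77 tested members, 72 had a negative log2 fold change (93.5%, against 46.9% of all tested genes), and 5 had a positive one. The median was -0.196 for members and 0.0137 for all tested genes. With limma's moderated test and Benjamini-Hochberg adjustment over 15061 genes, 0 members were called, and 0 genes were called in the whole table (0.0%). At an unadjusted p under 0.05 there was 1 member (1.3%), against 831 of all tested genes (5.52%). That member was lower in knock-out, as were 276 of all tested genes (1.83%). In no member were the 4 knock-out values all below the 4 wild-type values, a pattern shown by 1.12% of all tested genes, or all above them (1.91%). The fold change exceeded its standard error in 54 of the 77 members. No share over all tested genes is given for that count. The members come from the same libraries, and wild type replicate 1 was the highest for 63 of them, so these are not 54 separate results. Median-ratio rescaling and quantile normalization each gave 74 members with a negative value. Centring every library on the members' own median level left 48 with a negative value. The members' median was then -0.0423, so the centring did not take out all of the shift they share.

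Much of the difference in means sat in wild type replicate 1. Without it, 68 members still had a negative log2 fold change (88.3%, against 49.6% of all tested genes), but the median moved to -0.0871 for members, against 0.00131 for all tested genes. All 26 small-subunit members had a negative value with 8 libraries (median -0.18), and 23 did without wild type replicate 1. Of the 50 tested large-subunit members, 45 had a negative value (median -0.199), and 44 did without it. The 48 members with a bacterial homolog had a median of -0.199, and the 28 tested members without one, additions of the mitochondrial ribosome, had -0.194. No test was run between these subsets.

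**Figure D1:**
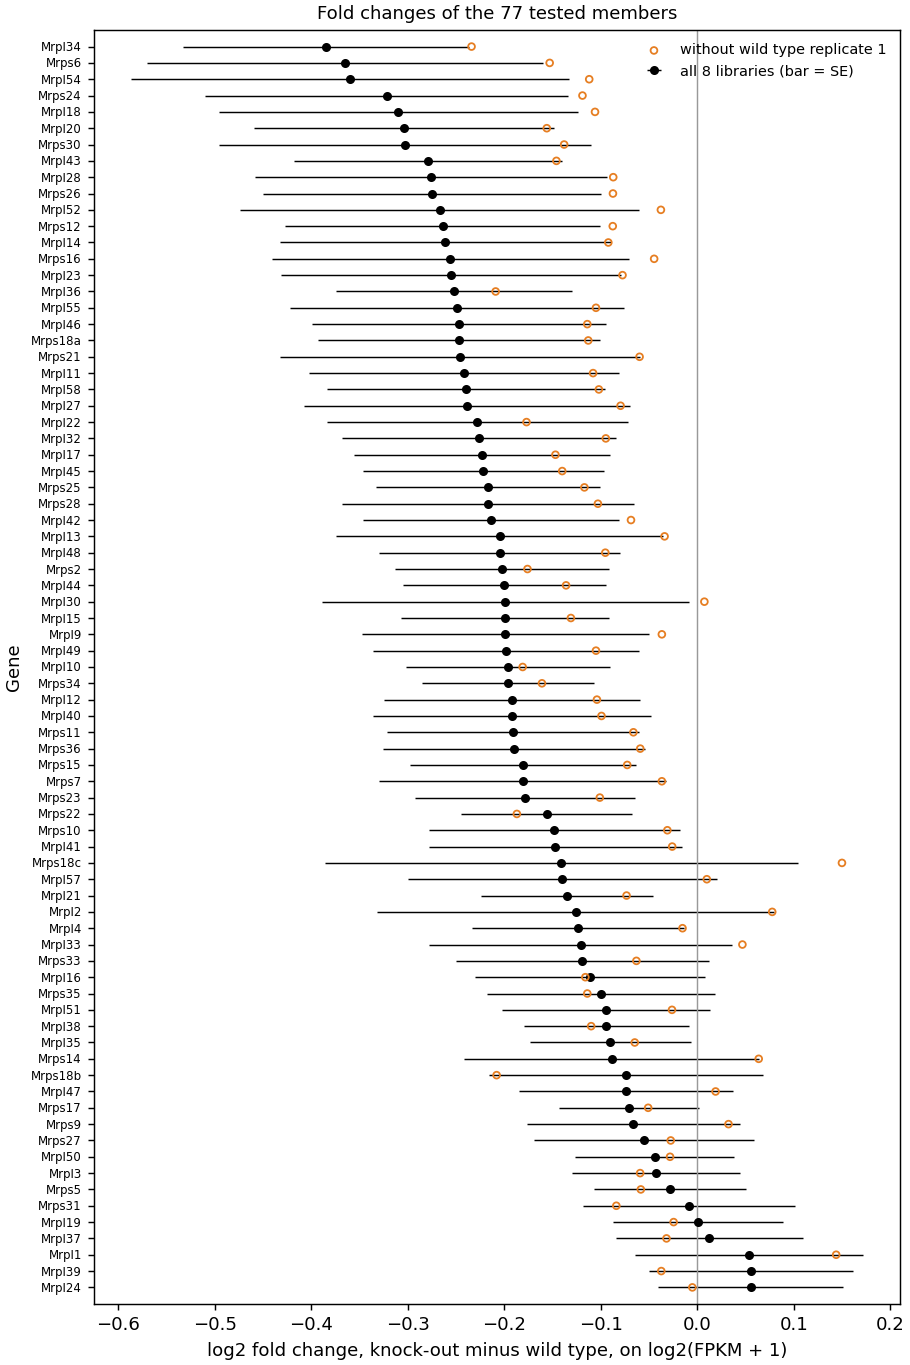
Log2 fold change, knock-out minus wild type on log2(FPKM + 1), of the 77 tested members, 1 gene per row. Black points are the values from all 8 libraries with their standard error, and orange rings the values without wild type replicate 1. Of the black points 72 lie left of 0, and the median is -0.196 with all libraries and -0.0871 without that one.

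The summed level of the members showed the same overlap. The 78 genes added up to 2206, 2254, 2546 and 2356 FPKM in the knock-out libraries, against 3482, 2655, 2556 and 2213 FPKM in the wild-type libraries. They made up 0.384%, 0.391%, 0.427% and 0.404% of all FPKM in knock-out, against 0.523%, 0.441%, 0.421% and 0.381% in wild type. Wild type replicate 1 was far above all other libraries, while wild type replicate 4 lay at the level of the lowest knock-outs. The members' median deviation from each gene's mean was -0.157, -0.144, 0.0275 and -0.0856 on the log2 scale in knock-out, against 0.423, 0.0913, 0.0381 and -0.181 in wild type. The members moved together from library to library: wild type replicate 1 was the highest of 8 for 63 of 77 members (81.8%, against 30.0% of all tested genes). Among the wild types, replicate 4 was the lowest for 64 members (83.1%, against 29.8% of all tested genes), and for 61 members it lay at or below the knock-out mean (79.2%, against 51.6%). Among the knock-outs, replicate 3 was the highest for 53 members (68.8%, against 36.1%). The lowest of the 8 values fell in knock-out replicate 1 for 30 members and in wild type replicate 4 for 17. The SD was larger in wild type than in knock-out for 67 members (87.0%, against 74.1% of all tested genes) and, without wild type replicate 1, for 47 (61.0%, against 55.8%).

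**Figure D2:**
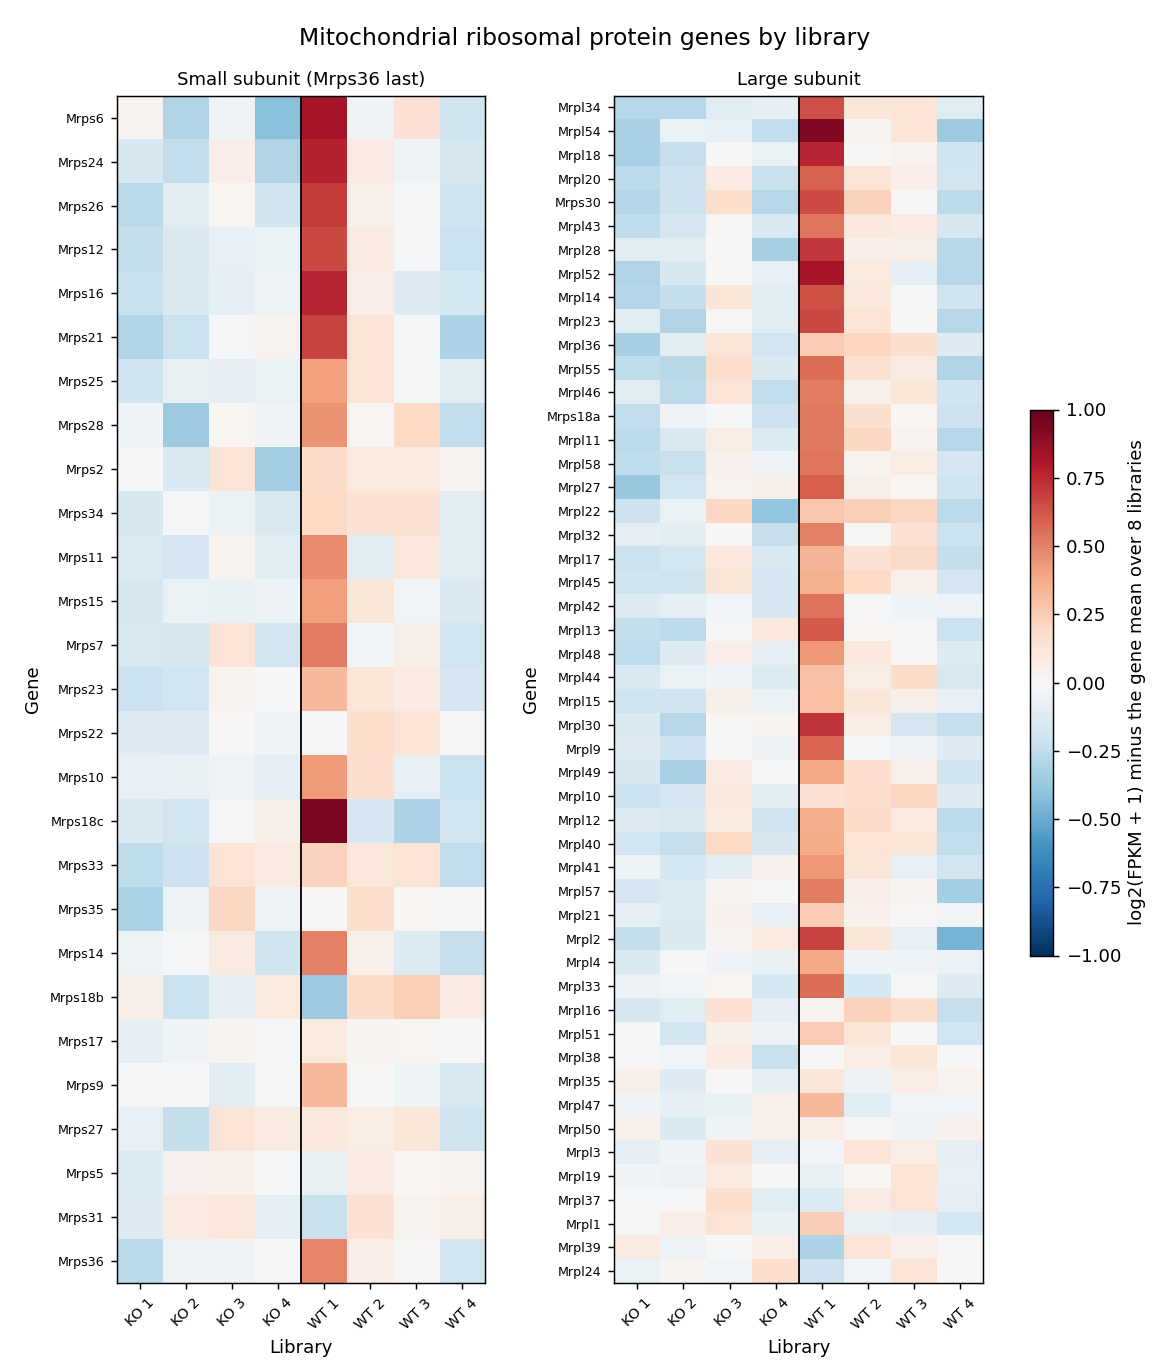
Log2(FPKM + 1) minus the gene's mean over 8 libraries, for small-subunit members and Mrps36 (left) and large-subunit members (right), ordered by fold change. Columns are libraries, knock-out (KO) left of the black line and wild type (WT) right of it. Wild type replicate 1 is the darkest red column, with 63 of 77 members highest there, and wild type replicate 4 is mostly blue, like knock-outs 1 and 2.

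**Figure D3:**
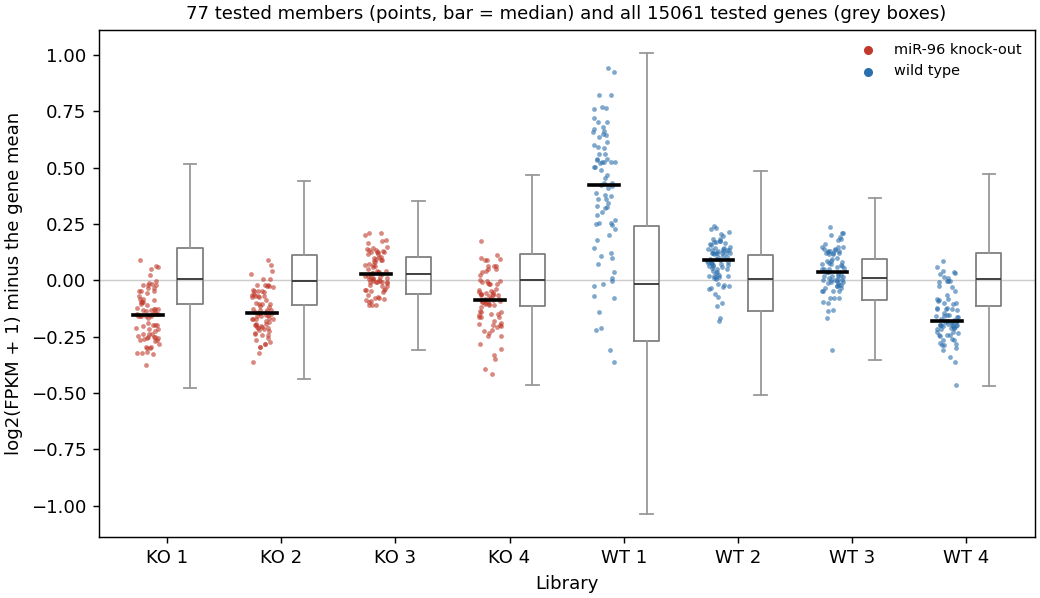
Deviation of log2(FPKM + 1) from the gene's mean, per library, for the 77 tested members (points, black bar at the median) and for all 15061 tested genes (grey boxes with median and quartiles, outlying genes not drawn). The members' medians run from -0.157 to 0.0275 in knock-out (red) and from -0.181 to 0.423 in wild type (blue), while the medians of all tested genes stay near 0.

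The member of lowest p was Mrpl34, a small rRNA-binding protein of the large subunit with a bacterial homolog, at chromosome 8, 71464959 to 71465747, whose promoter with an ETS match is shown above. It had 36.0, 36.0, 40.7 and 41.1 FPKM in knock-out, against 69.3, 47.9, 48.2 and 40.3 FPKM in wild type. Of the wild types 3 lay above all knock-outs, and replicate 4 lay among them. The log2 fold change was -0.385 ± 0.148 (SE), with an unadjusted p of 0.027 and an adjusted p of 0.62 by limma. Without wild type replicate 1 it was -0.234. Over the alternatives tried its adjusted p ran from 0.0389 to 0.833.

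Mrps34, a mitochondrion-specific protein needed for a stable small subunit, had 28.5, 31.5, 30.5 and 28.7 FPKM in knock-out, against 36.9, 35.4, 35.5 and 29.7 FPKM in wild type. Again only wild type replicate 4 overlapped with the knock-outs, and wild type replicate 1 was close to replicates 2 and 3. Its log2 fold change of -0.196 ± 0.0892 (SE) had an adjusted p of 0.62 and became -0.161 without wild type replicate 1. Mrps34 has 2064 annotated exonic nt, of which 763 are shared with Nme3 on the same strand and 1309 with Mapk8ip3 on the opposite strand. Its level is therefore uncertain. Mrpl36, a small protein of the large subunit whose promoter holds the YY1 match shown above, had 18.1, 21.3, 25.2 and 20.0 FPKM in knock-out, against 27.6, 26.8, 25.8 and 21.0 FPKM in wild type. Knock-out replicate 3 reached the wild-type range and wild type replicate 4 the knock-out range. Its log2 fold change was -0.252 ± 0.122 (SE), and -0.209 without wild type replicate 1.

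Mrpl43, a mitochondrion-specific protein of the large subunit, had 24.9, 26.4, 30.0 and 26.8 FPKM in knock-out, against 43.7, 32.1, 31.6 and 26.6 FPKM in wild type. Mrpl20, whose bacterial homolog acts early in the assembly of the large subunit, had 64.3, 66.7, 82.2 and 66.3 FPKM in knock-out, against 117, 84.7, 81.1 and 68.0 FPKM in wild type. In both genes wild type replicate 1 was the highest library by a wide margin and wild type replicate 4 lay in the knock-out range. Their log2 fold changes of -0.279 and -0.304 moved to -0.146 and -0.156 without wild type replicate 1. The other members among the 10 of lowest p were Mrpl44, Mrps25, Mrpl10, Mrpl15 and Mrps2, with log2 fold changes from -0.217 to -0.196 and an adjusted p of 0.62 each. Mrps2, a homolog of bacterial S2, had 11.0, 9.94, 12.3 and 8.56 FPKM in knock-out, against 12.8, 12, 12 and 11.4 FPKM in wild type. Here wild type replicate 1 was close to the other wild types, and without it the log2 fold change was -0.176.

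**Figure D4:**
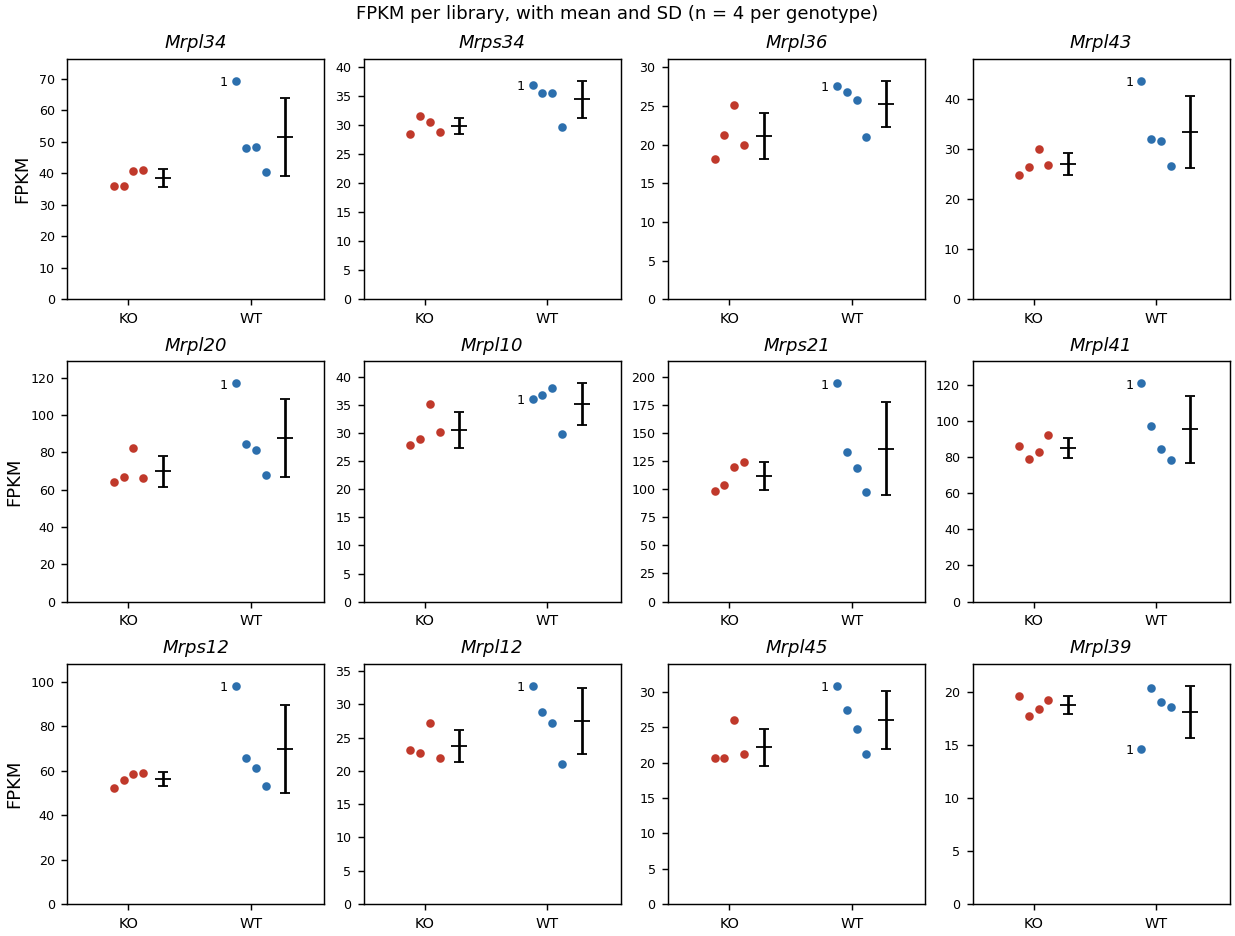
FPKM per library of 12 members, knock-out (KO, red) left and wild type (WT, blue) right, replicates 1 to 4 from left to right within a genotype, with the mean and SD (n = 4) beside the points. The digit 1 marks wild type replicate 1. Mrpl34 averaged 38.4 FPKM in knock-out and 51.4 FPKM in wild type, and Mrpl39, 1 of the 5 members with a positive fold change, has its lowest value in wild type replicate 1.

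The stalk recruits translation factors to the ribosome. All 3 of its listed genes had a negative log2 fold change, with a median of -0.196, and 0 were called. Mrpl10, which anchors the stalk, had 28.0, 29.0, 35.2 and 30.3 FPKM in knock-out, against 36.2, 36.9, 38.0 and 29.8 FPKM in wild type. Its highest library was wild type replicate 3, and leaving out replicate 1 changed its log2 fold change little, to -0.181 from -0.196 ± 0.106 (SE). Mrpl12, the factor-binding stalk protein, had 23.1, 22.7, 27.2 and 21.9 FPKM in knock-out, against 32.8, 28.9, 27.2 and 21.0 FPKM in wild type, with a log2 fold change of -0.192. Mrpl11, at the base of the stalk, averaged 10.7 ± 1.16 FPKM in knock-out and 13.1 ± 3.27 FPKM in wild type (SD, n = 4 each).

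The central protuberance of the large subunit faces the small subunit. All 8 of its listed genes had a negative log2 fold change, from -0.31 for Mrpl18 to -0.0941 for Mrpl38, and 0 were called. Mrpl18, which is related to a bacterial binder of 5S rRNA, had 38.6, 41.3, 48.4 and 46.3 FPKM in knock-out, against 83.1, 49.0, 49.8 and 42.2 FPKM in wild type. Its value in wild type replicate 1 was far above the rest, wild type replicates 2 and 3 lay just above the highest knock-out, replicate 4 lay among the knock-outs, and the log2 fold change without replicate 1 was -0.106. Mrpl52 had 57.9, 63.9, 71.8 and 67.3 FPKM in knock-out, against 127, 76.3, 66.8 and 58.4 FPKM in wild type, and its log2 fold change was -0.267 with 8 libraries and -0.0377 without wild type replicate 1. Mrpl58, a peptidyl-tRNA hydrolase known for releasing stalled ribosomes, averaged 34.7 ± 3.45 FPKM in knock-out and 41.7 ± 9.22 FPKM in wild type (SD, n = 4 each). Mrpl38 was the exception in pattern, with 56.6, 56.4, 60.8 and 48.9 FPKM in knock-out, against 57.3, 60.3, 62.5 and 57.3 FPKM in wild type. For Mrpl38, wild type replicate 1 did not stand out.

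The rim of the exit tunnel is where new proteins leave the ribosome for the inner membrane. Of its 5 listed genes, 4 had a negative log2 fold change and 0 were called. Mrpl45, which holds the ribosome at the membrane and whose promoter held 3 NRF1 matches, had 20.7, 20.7, 26.0 and 21.2 FPKM in knock-out, against 30.9, 27.5, 24.8 and 21.2 FPKM in wild type. Mrpl22, a tunnel protein, had 23.3, 25.7, 31.4 and 20.3 FPKM in knock-out, against 32.7, 32.1, 31.4 and 22.3 FPKM in wild type. In Mrpl22 the genotypes overlapped through knock-out replicate 3 and wild type replicate 4, and the log2 fold change was -0.228, or -0.177 without wild type replicate 1. Mrpl24 was on the other side of 0: it had 32.2, 34.5, 33.2 and 38.3 FPKM in knock-out, against 29.1, 33.2, 37.1 and 33.7 FPKM in wild type, with a log2 fold change of 0.0556. That value became -0.00508 without wild type replicate 1.

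In the small subunit, the 6 listed genes of the decoding centre and neck all had a negative log2 fold change, and 0 were called. Mrps12, the decoding-centre protein, had 52.3, 56.0, 58.4 and 59.2 FPKM in knock-out, against 98.4, 66.0, 61.4 and 53.2 FPKM in wild type, with a log2 fold change of -0.264 ± 0.163 (SE). Mrps24 had 35.6, 33.5, 41.8 and 32.1 FPKM in knock-out, against 68.7, 42.3, 38.5 and 35.6 FPKM in wild type. In both, wild type replicate 1 was the highest library, and their log2 fold changes without it were -0.0876 and -0.119. Mrps5, Mrps7, Mrps9 and Mrps11 had log2 fold changes of -0.0282, -0.181, -0.0662 and -0.191. Mrps30 and Mrps18a, which sit in the large subunit despite their names, had -0.303 and -0.247. Mrps36 had 40.9, 47.8, 47.8 and 48.8 FPKM in knock-out, against 69.7, 51.8, 49.8 and 43.3 FPKM in wild type.

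Apart from Mrpl38, each of the 10 most abundant members had its highest value in wild type replicate 1. Mrps21 had 98.0, 104, 120.0 and 124 FPKM in knock-out, against 194, 133, 119 and 97.3 FPKM in wild type. Mrpl41, a mitochondrion-specific large-subunit protein, had 86.4, 79.2, 82.7 and 92.1 FPKM in knock-out, against 121, 97.4, 84.6 and 78.6 FPKM in wild type. Both genes had their lowest wild-type value below the lowest knock-out and their highest value in wild type replicate 1. Mrpl42 averaged 68.1 ± 2.84 FPKM in knock-out and 80.4 ± 18.0 FPKM in wild type (SD, n = 4 each), with a log2 fold change of -0.214, or -0.0687 without that library. Mrpl30 had a log2 fold change of -0.199 with 8 libraries and 0.00737 without it.

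A few members did not share the pattern, and these were chosen after their values were seen. The 5 members with a positive log2 fold change were Mrpl24, Mrpl39, Mrpl1, Mrpl37 and Mrpl19, and none exceeded 0.0556. In 5 members wild type replicate 1 was the lowest of the 8 libraries, namely Mrpl24, Mrpl37, Mrpl39, Mrps18b and Mrps31. Mrpl39, a mitochondrion-specific protein related to a tRNA synthetase, had 19.6, 17.7, 18.4 and 19.2 FPKM in knock-out, against 14.6, 20.3, 19.0 and 18.5 FPKM in wild type. Mrps18b had 11.3, 9.17, 10.1 and 11.6 FPKM in knock-out, against 8.16, 12.4, 12.9 and 11.5 FPKM in wild type. For Mrps18b the log2 fold change was -0.0743 with 8 libraries and -0.208 without wild type replicate 1. At the other end, its paralog Mrps18c had 15.0, 14.6, 16.6 and 17.5 FPKM in knock-out, against 33.1, 14.8, 13.3 and 14.6 FPKM in wild type. The 3 other wild types of Mrps18c lay at or below most knock-outs, and its log2 fold change of -0.141 became 0.15 without replicate 1. Mrps22, a mitochondrion-specific small-subunit protein, had 8.64, 8.63, 9.5 and 9.24 FPKM in knock-out, against 9.44, 10.9, 10.6 and 9.65 FPKM in wild type. Its wild type replicate 1 was the lowest wild type, and its log2 fold change was -0.156 with 8 libraries and -0.187 without it.

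The excess in wild type replicate 1 was larger for shorter members. On the log2 scale, that library exceeded the mean of the other 7 libraries by a median of 0.63 in the 26 shortest members, 0.432 in the 25 of middle length and 0.339 in the 26 longest. It was the highest library for 25, 19 and 19 of them in that order. The median log2 fold change between genotypes was -0.234, -0.192 and -0.12 in the same order. Spearman's rho between transcript length and the excess was -0.409 across the 77 members and -0.386 across 15020 tested genes. Between length and the log2 fold change it was 0.379 for members and 0.324 for all tested genes with 8 libraries, and 0.134 for members and 0.167 for all tested genes without wild type replicate 1. These relations are across genes of the same libraries and carry no p. With the smooth length trend removed from each library, 69 members still had a negative value and the median was -0.128. With that library left out as well, there were 66 and the median was -0.069.

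**Figure D5:**
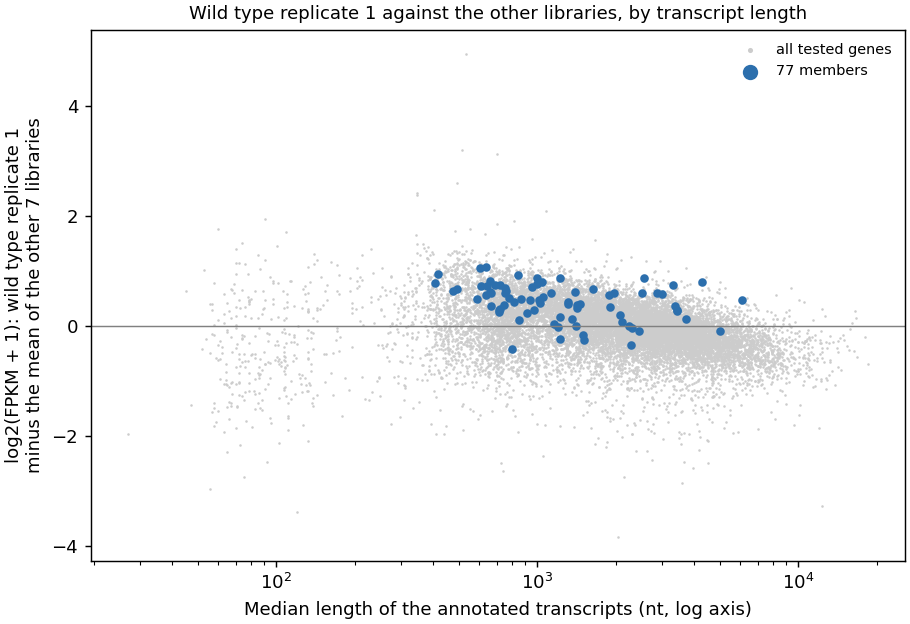
Log2(FPKM + 1) in wild type replicate 1 minus the mean of the other 7 libraries, against the median length of the gene's annotated transcripts on a log axis. Grey points are tested genes and blue points the 77 members. Most members lie above 0 at lengths where grey points do as well, and across all tested genes the values fall with length (Spearman's rho -0.386).

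Cytosolic ribosomal protein genes and complex I subunit genes also had mostly negative log2 fold changes in these libraries. The 80 cytosolic ribosomal protein genes, of which 77 were tested, summed to 17527, 17230, 21327 and 18781 FPKM in knock-out, against 39818, 22538, 20705 and 17319 FPKM in wild type. All 77 tested ones had a negative log2 fold change, with a median of -0.34, or -0.108 without wild type replicate 1. Of the 36 complex I subunit genes found by symbol, 33 had a negative value, with a median of -0.24, or -0.114 without that library. With the length trend removed the medians were -0.268 for the cytosolic ribosomal protein genes and -0.167 for the complex I genes. No gene of either list was called. No test of the difference between these lists and the mitoribosome was run.

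Further lists covered the remaining parts of mitochondrial translation, and mitochondrial transcription and biogenesis. The share of negative log2 fold changes varied from list to list, and no difference between these lists and the members was tested. Of the 5 mitoribosomal proteins that go by other symbols, Gadd45gip1, Aurkaip1, Dap3 and Chchd1 had log2 fold changes of -0.203, -0.305, -0.137 and -0.254, and Ptcd3 had 0.11. Gadd45gip1 had 5.68, 5.87, 6.18 and 6.54 FPKM in knock-out, against 6.91, 8.02, 7.15 and 6.51 FPKM in wild type, an overlap by 1 pair of libraries. Its log2 fold change was -0.216 without wild type replicate 1. Of the 15 tested translation factors, 8 had a negative value and the median was -0.046. Of the 20 mitochondrial aminoacyl-tRNA synthetases, which charge tRNAs, 9 were negative and the median was 0.0122. Of the 20 genes of mitoribosome assembly and rRNA modification, 13 were negative, with a median of -0.055. In that list 3 had an unadjusted p under 0.05 and an adjusted p of 0.62. They were Noa1, a GTPase of small-subunit assembly, at -0.238, Mrm3, an rRNA methyltransferase, at -0.276, and Mterf3, which acts in mitochondrial ribosome assembly, at 0.237. The 6 genes of mitochondrial transcription had a median of -0.0625, with Tfam, the factor that packages mitochondrial DNA, at -0.085. The 10 regulators of mitochondrial biogenesis had a median of 0.0394. No gene of these lists was called.

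The RNAs that the mitoribosome is built on and translates come from the mitochondrial genome and are captured only in part by polyA selection. The 12S rRNA gene mt-Rnr1 had 2538, 2413, 1916 and 3024 FPKM in knock-out, against 5070, 1453, 2342 and 2855 FPKM in wild type. The 16S rRNA gene mt-Rnr2 had 2206, 2131, 1694 and 2656 FPKM in knock-out, against 4058, 1307, 1942 and 2561 FPKM in wild type. Both were highest in wild type replicate 1 and lowest in wild type replicate 2, so the wild types enclosed all knock-outs. Their log2 fold changes of -0.118 and -0.0797 became 0.194 and 0.2 without replicate 1. Of the 13 mitochondrially encoded proteins, 8 had a positive log2 fold change, with a median of 0.0685. Without wild type replicate 1, 1 of the 13 was negative and the median was 0.286. The only one with an unadjusted p under 0.05 was mt-Co3, a cytochrome c oxidase subunit, with 57.4, 28.7, 55.5 and 136 FPKM in knock-out, against 49.1, 22.5, 19.2 and 17.3 FPKM in wild type. Its log2 fold change was 1.24 ± 0.444 (SE) with an adjusted p of 0.62. Wild type replicate 1 lay among the knock-outs for mt-Co3. Its level was far below that of mt-Co1, another subunit of the same enzyme, which had 7528 to 9518 FPKM over the 8 libraries. It was also far below the list's median of 1090 FPKM. How fully the mt-Co3 entry counts its transcript was not tested, so its fold change is uncertain.

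Many members share a start region with a gene on the opposite strand. For 18 of the 78 members, a protein-coding gene pointing the other way began within 1000 nt upstream (23.1%). The share was 6.81% over 21734 protein-coding genes in the files. Pairs that overlap at their starts were not counted, such as the members Mrpl46 and Mrps11, which share 173 exonic nt on opposite strands. The 18 members had a median log2 fold change of -0.144, with 17 negative, while 9 of the 16 tested partners were negative and their median was -0.00617. Without wild type replicate 1 the members' median was -0.0452, with 14 negative, and that of the partners -0.00574, with 9 negative. Mrpl54 began 26 nt from Apba3: its log2 fold change was -0.36, and that of Apba3 was 0.133. Mrpl30 began 66 nt from Mitd1, with -0.199 for Mrpl30 and 0.115 for Mitd1. In other pairs both values were negative, as for Mrpl49 at -0.198 and Fau, which encodes a cytosolic ribosomal protein, at -0.361. Mrps12 at -0.264 and the mitochondrial seryl-tRNA synthetase gene Sars2 at -0.154 are a pair in which both partners act in mitochondrial translation. These pairs were chosen after their values were seen, and no test was run between members and partners.

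Calls depended on how the libraries were weighted. With limma's estimated library weights, which gave wild type replicate 1 a weight of 0.153 and wild type replicate 3 a weight of 5.09, 9 of the 77 members passed an adjusted p under 0.05 (11.7%, against 10.8% of all tested genes). All 9 were lower in knock-out: Mrpl10, Mrpl17, Mrpl20, Mrpl34, Mrpl36, Mrpl43, Mrpl44, Mrps22 and Mrps34, with log2 fold changes from -0.348 to -0.215 and adjusted p from 0.0389 to 0.0492. The share of members was close to that of all tested genes. Leaving out wild type replicate 4, the wild type with the lowest member levels, gave 35 members with an unadjusted p under 0.05 (45.5%, against 20.9% of all tested genes), all lower in knock-out. The lowest adjusted p among members was then 0.198, so 0 were called.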

How the data were processed

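The authors deposited 1 table of FPKM values per library, without counts. Per the submitters' processing notes the tools were HISAT2, SAMtools and Cufflinks and the genome build mm8, while the deposited positions equalled the GRCm38 annotation for 45128 of the 49326 genes matched to a symbol (91.5%) and for 65 of the 78 members. Per the labels' protocols, libraries were made from polyA RNA with a NEBNext Ultra kit, and the strand setting of the counting is not given in the sources used here.

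Genes were tested on log2(FPKM + 1) with limma 3.58.1 in R 4.3.3 (trend and robust options, two-sided), 4 knock-out against 4 wild-type libraries, where the mean FPKM over the 8 libraries was at least 1. P-values were adjusted by Benjamini-Hochberg over all 15061 tested genes, with a threshold of 0.05. No count model was used, because FPKM are not counts. Depth was estimated from the steps between low values of single-transcript genes of at least 3000 nt, taking fragments as 200 nt long, and 98.1% to 99.4% of these values came out within 0.15 of a whole number of fragments. The depth is therefore an estimate, and intervals that need counts are not given. The fit was tested on simulated data with independent noise of the same size for every gene and a log2 shift of 1 in some genes. The simulated data held no outlying library and no genes that move together, so they do not cover these features of the real libraries.

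Members named in the text were the 10 of lowest p, the 10 of highest and 5 of lowest mean FPKM and those of the role lists; others were chosen after their values were seen. The members and gene lists were chosen with earlier results of these data known. The series describes 4 mice per genotype, 1 per library. Replicate numbers were not taken to pair libraries. Sequences came from RefSeq tables and GENCODE M21 transcripts. Alternatives covered the pseudocount, the filter, scaling, limma's options, library weights, a replicate block, a length correction and leaving out each library, and 2 were chosen after seeing the data, centring on the members' median and the length correction without wild type replicate 1.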

Additional observations from a re-analysis of the deposited data

Results flagged for a closer look

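Within each genotype, a library was looked at again when its gap to the nearest of the other 3 was a large share of the genotype's whole range by Dixon's criterion, which chance meets in about 5% of groups. Over the 77 tested members and both genotypes, 154 groups were examined. The gaps were 5 high values of knock-out replicate 3, 4 high values of wild type replicate 1, 2 low values each of knock-out replicate 1 and wild type replicate 4, and 1 high value of wild type replicate 2. Those of the members named by the stated rule and of related genes follow.

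In knock-out replicate 3, Mrpl20 had 82.2 FPKM (64.3 to 66.7 FPKM in the other knock-outs), Mrps30 7.07 FPKM (4.81 to 5.17), Mrpl40 26.1 FPKM (19.1 to 20.1), Mrpl45 26.0 FPKM (20.7 to 21.2) and Mrps7 37.4 FPKM (29.6 to 30.5). Dap3, a mitoribosomal protein under another symbol, had 71.0 FPKM there (59.8 to 61.6), and the rRNA methyltransferase Mrm3 had 13.3 FPKM (9.95 to 10.3). In knock-out replicate 1, Mrps36 was low at 40.9 FPKM (47.8 to 48.8).

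In wild type replicate 1, Mrpl42 had 107 FPKM (70.9 to 72.2 FPKM in the other wild types) and Mrpl4 73.0 FPKM (53.0 to 54.1), while Ptcd3 was low at 26.1 FPKM (31.4 to 31.8). The mitochondrially encoded mt-Co3 and mt-Atp6 had 49.1 FPKM (17.3 to 22.5) and 64.1 FPKM (17.6 to 23.6) in that library. Both levels were far below the median of 1090 FPKM of the mitochondrially encoded proteins. In wild type replicate 4, Mrpl22 was low at 22.3 FPKM (31.4 to 32.7). In the same library Mtif2, a translation initiation factor, had 20.5 FPKM (15.4 to 15.7), Mterf3 22.0 FPKM (17.1 to 17.8), Tfb2m 18.9 FPKM (17.0 to 17.3) and mt-Nd5 1471 FPKM (865 to 949). The values of these genes with and without wild type replicate 1 are those of the report, and no cause was tested.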

How the results depend on the processing

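The count of 0 called members held under each alternative except library weights. These gave 9 called members (11.7%), against 1627 genes called in the whole table (10.8%). Of the 91 genes of the other mitochondrial lists, 8 were called. Besides translation, these lists cover mitochondrial transcription, biogenesis regulators and mitochondrially encoded genes. With these weights 34 members had an unadjusted p under 0.05. No share over all tested genes is given for that count, so it cannot be read as particular to the members. Members at an unadjusted p under 0.05 numbered 2 with median-ratio rescaling, 2 with a replicate block and 0 when centred on the members' median. With 1 library left out they numbered 0 to 35 (35 without wild type replicate 4, 6 without knock-out replicate 3, 0 without knock-out replicate 1 or 2). Without wild type replicate 4 the share over all tested genes was 20.9%. For the other counts no such share is given, so they cannot be read as particular to the members. Leaving out 1 library gave 0 to 1 called genes in the whole table, 68 to 74 members with a negative value and a median from -0.275 to -0.0871. The 1 called gene, no member, came without knock-out replicate 2. The deviations of same-numbered libraries correlated from -0.108 to 0.144, and those of other pairs from -0.417 to 0.228. Not every library correlated best with its own number, and the replicate block changed no call. These few correlations cannot show whether same-numbered libraries were handled together. The cause of these shifts was not tested.

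Among genes the text names, signs turned as follows. Centred on the members' median, which put the median of all tested genes at 0.167 (0.0137 without centring), Mrpl41 had 0.00669, Mrpl38 0.0595, Mrpl4 0.0295, Mrpl47 0.0794, Mrps31 0.145, Mrps5 0.125, Mrps9 0.0875, Dap3 0.0162, Oxa1l 0.00282, Sars2 0.000116, Tfam 0.0686, Tfb2m 0.0743, Mterf1b 0.0116, mt-Rnr1 0.0352 and mt-Rnr2 0.074. With library weights Mrpl24 had -0.063, Mrps9 0.022, Mterf1b 0.206, mt-Rnr1 0.144 and mt-Rnr2 0.205. With quantile normalization Mrpl1 had -0.0202, mt-Rnr1 0.0577 and mt-Rnr2 0.078. With the length trend removed Mrps31 had 0.0447, and without wild type replicate 1 as well Mrpl30 had 0.0248, Mrpl4 0.00931, Mrpl47 0.00318, Mrps9 0.0581, mt-Rnr1 0.222 and mt-Rnr2 0.22. With 1 library left out, ranges were -0.00508 to 0.108 for Mrpl24, -0.309 to 0.00737 for Mrpl30, -0.125 to 0.019 for Mrpl47, -0.0839 to 0.0369 for Mrps31, -0.0585 to 0.0123 for Mrps5, -0.129 to 0.0324 for Mrps9, -0.407 to 0.194 for mt-Rnr1 and -0.344 to 0.2 for mt-Rnr2. At the estimated depth the smallest value behind a tested member was 161 fragments, where counting error is largest.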
